A study of Mus musculus with 9 samples.

Results

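Chemokines and their receptors were examined in macrophages sorted from the liver of mice fed CDA-HFD, a high-fat diet without choline and with defined amino acids that causes steatohepatitis and fibrosis, or a normal diet (ND). Members were chosen by a rule on names, with earlier results of these data known. They were symbols made of Ccl, Cxcl, Xcl, Cx3cl, Ccr, Cxcr, Cx3cr, Xcr or Ackr followed by a digit, together with Pf4 and Ppbp, which are CXC chemokines under other names. The 63 members described are of the 24312 genes in the table, 41 ligands and 22 receptors.

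RNA was sequenced from macrophages gated as Ly6C-low and F4/80-positive after 7 weeks of CDA-HFD (7w), after 10 weeks of CDA-HFD (10w), or on ND, with 3 libraries in each group. All mice were wild type (WT) with no transgene, and libraries are named by group and replicate number (7w 1, 10w 1, ND 1). The study's methods give male C57BL/6J mice aged 6 to 12 weeks for the diet, the labels give no age, and each library is described as a separate animal. The gate takes in both resident Kupffer cells and macrophages derived from monocytes. By the paper's flow cytometry, Tim4-negative monocyte-derived macrophages had replaced nearly all Tim4-positive resident cells in this gate by 7 weeks of CDA-HFD. The makeup of the sorted population therefore differed between diets, and its part in the chemokine results was not tested.

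Chemokines are small secreted proteins that attract leukocytes, and they are grouped by the spacing of their first cysteines into CC, CXC, XC and CX3C types. They act on G protein-coupled receptors, several ligands sharing a receptor and several receptors sharing a ligand, while atypical receptors bind chemokines without G protein signalling and scavenge or transport them. In the liver, resident macrophages are an early source of ligands that bring in monocytes and neutrophils, and the incoming monocytes carry Ccr2 and Cx3cr1.

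Values are FPKM, fragments scaled to transcript length and to mapped reads. The estimated depth was 5405000 to 6165000 reads per library. Log2 values of libraries correlated at 0.956 to 0.969 within a group. In the CDA-HFD libraries the summed markers of resident Kupffer cells were at 807 to 1048 FPKM, against 2177 to 2302 FPKM in ND, and all 10 fell, Cd163 (log2 fold change −5.12) and Timd4 (−4.58) by the most. Of 9 tested monocyte markers 7 rose and 1 fell (summed without Ccr2, 547 to 681 FPKM in CDA-HFD and 253 to 267 FPKM in ND), with S100a4 and Chil3 first, each listed at 0 in at least 1 ND library, so that no fold is given. Plac8, which fell (−0.32), made up most of the ND sum, averaging 220 FPKM there. All 8 tested hepatocyte markers fell, Fgb by 3.23, and their sum was 283 to 360 FPKM in CDA-HFD and 502 to 778 FPKM in ND. Of 16 immediate early and dissociation response genes 13 rose and none fell (sums of 2227 to 2428 FPKM in CDA-HFD and 1128 to 1520 FPKM in ND), Fosb (3.98) and Socs3 (2.95) by the most. All 3 tested stellate cell markers rose, Dcn by 2.05 (no fold is given for Lum, listed at 0 in every ND library), their sum being 10.0 to 25.3 FPKM in CDA-HFD and 1.91 to 4.67 FPKM in ND. Endothelial markers moved both ways, 4 higher and 2 lower of 8, with Kdr (1.37) and Stab2 (−2.77) at the ends. The part of these markers in the chemokine results was not tested. In bulk RNA, fewer cells of a type and less RNA per cell cannot be told apart.

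Transcripts of more chemokine genes were higher than lower in macrophages of CDA-HFD-fed mice. A gene was tested if it reached 1 FPKM in at least 3 libraries, which 39 members did, 28 ligands and 11 receptors. Differential expression was tested with limma on log2(FPKM + 1) and called at a Benjamini-Hochberg adjusted p below 0.05. With both CDA-HFD groups averaged against ND, 19 members rose, 7 fell and 13 were not called, beside 22.8% higher and 24.3% lower among all 11783 genes tested. At least 2-fold, 16 members rose and 5 fell, beside 7.23% and 9.24% of all genes. Among those that rose, Cxcl3 and Ackr1 were listed at 0 in every ND library, and their calls rest on taking these zeros as measured values. Ligands (13 higher and 5 lower of 28) and receptors (6 higher and 2 lower of 11) both moved in both directions. The median log2 fold change was 0.79 over the tested members and −0.03 over all genes. All 6 CDA-HFD values lay above all 3 ND values for 17 members and below them for 5, beside 19.3% and 21.3% of all genes. Because a member absent from one diet passes the filter only through the other, these counts describe the tested members and not all 63.

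**Figure D1:**
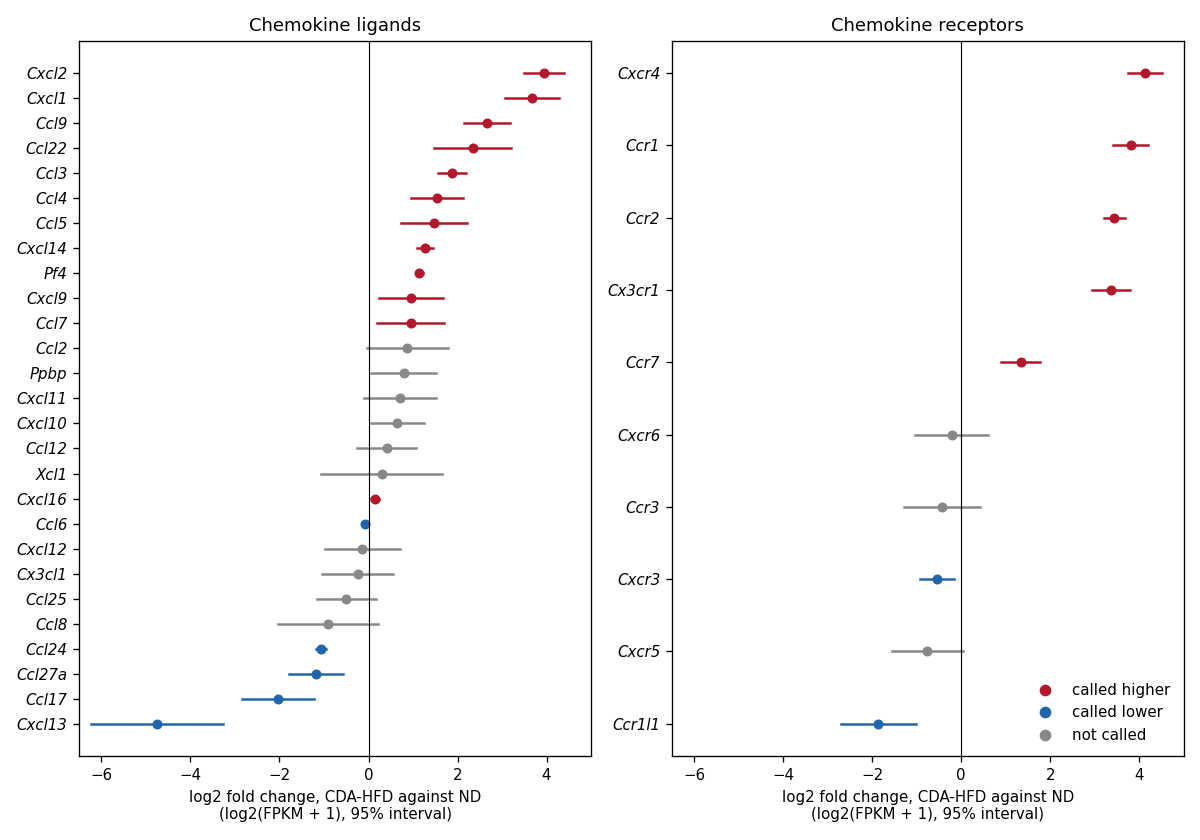
Log2 fold change (x axis, on log2(FPKM + 1)) of tested chemokine ligands (left) and receptors (right) in CDA-HFD against ND, with the limma 95% interval as a line and colour for the call at an adjusted p of 0.05. Cxcl3 and Ackr1, listed at 0 in all ND libraries, are left out; the values run from −4.75 for Cxcl13 to 4.13 for Cxcr4.

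The summed level of all ligands was 2081 to 2499 FPKM in the CDA-HFD libraries and 1327 to 1539 FPKM in the ND libraries. The 22 receptors summed to 422 to 482 FPKM in CDA-HFD and 68.3 to 94.2 FPKM in ND. The order of the ligands differed too. At 7w the most abundant per length was Ccl4 (288 ± 27.5 FPKM, SD, n = 3), followed by Ccl6 (257 ± 7.45 FPKM), whose range overlapped that of Ccl4. Next came Pf4 (241 ± 2.16 FPKM), then Cxcl2 (221 ± 10.5 FPKM) and Ccl3 (219 ± 17.2 FPKM), which overlapped each other. In ND the first was Ccl6 (256 ± 8.11 FPKM), followed by Cxcl13 (179.9 ± 18.4 FPKM) and Ccl24 (179 ± 8.23 FPKM), which overlapped, and then by Cxcl16 (130.2 ± 6.53 FPKM). Of these receptors, Ccr2 led at 7w (141 ± 2.91 FPKM) and at 10w (149 ± 13.4 FPKM).

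Of 4 tested ligands of the neutrophil receptor CXCR2, the CXC chemokines with an ELR motif, Cxcl1, Cxcl2 and Cxcl3 rose and Ppbp was not called. The 3 genes lie near each other on the forward strand of chromosome 5 in GRCm38 (annotation GENCODE vM21): Cxcl3 at chr5:90786103-90789600, Cxcl1 at chr5:90891241-90893115 and Cxcl2 at chr5:90903871-90905938, all protein coding.

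Their promoters are shown because the 3 that rose together share a match. Of the 63 members 48 had an entry in the RefSeq promoter table (GRCm38.p6), and the 250 bases before each start site were searched on both strands. Each run below is 100 bases of the gene's strand, ending 31 bases before the start site, with matches to the NF-kB motif in capitals (overlapping matches on the 2 strands join into 1 run of capitals). Cxcl3 is at chr5:90785971-90786070, Cxcl1 at chr5:90891115-90891214 and Cxcl2 at chr5:90903769-90903868 on the forward strand. Cxcl10, which was not called, is at chr5:92348920-92349019 on the reverse strand, and Cxcl13, which fell, is at chr5:95956809-95956908 on the forward strand.
Cxcl3: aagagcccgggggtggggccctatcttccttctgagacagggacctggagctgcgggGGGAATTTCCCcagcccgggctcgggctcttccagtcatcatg
Cxcl1: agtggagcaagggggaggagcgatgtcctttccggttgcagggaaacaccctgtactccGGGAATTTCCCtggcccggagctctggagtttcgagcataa
Cxcl2: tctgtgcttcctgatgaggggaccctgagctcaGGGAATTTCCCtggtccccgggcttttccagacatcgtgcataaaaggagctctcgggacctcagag
Cxcl10: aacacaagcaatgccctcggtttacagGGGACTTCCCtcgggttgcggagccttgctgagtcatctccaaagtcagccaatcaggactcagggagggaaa
Cxcl13: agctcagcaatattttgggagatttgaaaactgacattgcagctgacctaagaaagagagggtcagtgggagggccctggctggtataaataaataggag

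The capitals are the same 11 letters in Cxcl3, Cxcl1 and Cxcl2, where the first match begins at −73, −71 and −97 from the start site. Cxcl10 held a match at −103 and another, outside the printed run, at −159, and Cxcl13 held none. Of all 32851 RefSeq promoter windows, 3.9% held the motif. A member was counted if any of its windows held a motif, while these shares are per window. Members with several windows, such as Ccl27a, therefore had more chances of a match. Among members with an entry it was in 4 of 14 that rose (Ccl9 also, at −35), 0 of 6 that fell, 2 of 10 not called (Ccr3 and Cxcl10) and 3 of 18 not tested. Cxcl1, Cxcl2 and Cxcl3 are related neighbours shown for their shared match, so they do not count as independent cases. The other motifs searched were AP-1 (TGANTCA), CRE (TGACGTCA), C/EBP (TTGCNNNAA), Egr (GCGNGGGCG) and the TATA box (TATAAA). Of the 14 that rose, 1 held AP-1 (6.75% of all windows), 0 CRE (1.55%), 2 C/EBP (8.29%), 1 Egr (4.7%) and 4 a TATA box (12.4%). Of the 6 that fell, 1 held AP-1 and 2 a TATA box, and none of them held the others. Of the 10 not called, 3 held AP-1 and 5 a TATA box, and none held CRE, C/EBP or Egr. Of the 18 not tested, 2 held AP-1, 3 C/EBP and 5 a TATA box. A match is a description of letters and not a binding site.

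Cxcl2, a neutrophil attractant made early in inflammation, was at 221, 211 and 231.8 FPKM in the 7w libraries and 204, 176 and 172 FPKM in 10w, against 10.0, 9.41 and 18.9 FPKM in ND. Every CDA-HFD library was far above every ND library, and the 10w libraries were all below the 7w ones (log2 fold change 3.94, SE 0.20, limma adjusted p = 1.76e-06). Cxcl1, a close relative with the same receptor, was at 110.2, 76.8 and 149.9 FPKM in the 7w libraries and 66.5, 43.7 and 34.1 FPKM in 10w, against 2.96, 5.79 and 5.63 FPKM in ND. The groups did not overlap, and the 7w libraries differed among themselves more than those of Cxcl2 did (log2 fold change 3.68, SE 0.27, limma adjusted p = 3.69e-06). With a pseudocount of 5 its log2 fold change was 2.98. Cxcl3, the third of this group, was at 34.4, 39.7 and 31.5 FPKM in the 7w libraries and 15.8, 22.7 and 22.2 FPKM in 10w, and it was listed at 0 in all 3 ND libraries. Whether such a 0 means no reads or a value that could not be estimated is not known, so neither a fold nor a p is given. By the depth estimate its values in CDA-HFD stand for 79.5 to 184 reads.

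Ppbp, the platelet basic protein precursor, averaged 7.20 ± 3.38 FPKM in 7w, 4.76 ± 2.203 FPKM in 10w and 2.75 ± 0.519 FPKM in ND, with overlapping ranges (log2 fold change 0.79, SE 0.33, limma adjusted p = 0.0693). It was called at 7w alone (log2 fold change 1.04, SE 0.38, limma adjusted p = 0.0441), and in CDA-HFD against ND only without 7w 3 (limma adjusted p = 0.021) or 10w 3 (0.0173) among the left-out libraries. Cxcl5 stayed at or below 1.13 FPKM and Cxcl15 was listed at 0 throughout. The receptor Cxcr2, which neutrophils carry, was at or below 0.0643 FPKM in every library, about 1 read at most, and Cxcr1 was listed at 0 in all. Of 4 tested neutrophil markers Mmp8 rose (3.34) and S100a9 fell by 3.51, and the sum of 8 markers was 77.4 to 220 FPKM in CDA-HFD and 45.5 to 138 FPKM in ND. The upper end was 10w 3, where Retnlg was at 166 FPKM. Retnlg averaged 7.25 FPKM in 7w, 80.3 FPKM in 10w and 3.50 FPKM in ND, and was not called in CDA-HFD against ND. Against ND singly, 1 marker rose at 7w and 2 at 10w, and 1 fell at each.

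Of 5 inflammatory CC ligands, which attract monocytes, macrophages and T cells, 4 rose. Ccl3 (macrophage inflammatory protein 1-alpha) was at 226, 199 and 231 FPKM in the 7w libraries and 222, 206 and 203 FPKM in 10w, against 45.1, 57.9 and 73.1 FPKM in ND. The CDA-HFD libraries all stood apart above ND, with 7w and 10w at like levels (log2 fold change 1.87, SE 0.13, limma adjusted p = 1.42e-05). Ccl4 (macrophage inflammatory protein 1-beta) was at 288, 260.1 and 315 FPKM in the 7w libraries and 272, 265 and 271 FPKM in 10w, against 82.8, 68.1 and 151 FPKM in ND. No library of CDA-HFD overlapped ND, where ND 3 was well above the other two (log2 fold change 1.54, SE 0.24, limma adjusted p = 0.00247). Its log2 fold change was 2.35 with FPKM corrected for the upper limit that removal of duplicate reads sets, estimated at 324 to 370 FPKM. The same correction gave 2.39 for Ccl3 and 4.51 for Cxcl2.

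Ccl9, a CCR1 ligand of the mouse, was at 174, 164 and 158 FPKM in the 7w libraries and 146, 156 and 149 FPKM in 10w, against 30.04, 30.7 and 14.9 FPKM in ND. CDA-HFD libraries were tightly grouped and apart from ND, where ND 3 was the lowest (log2 fold change 2.66, SE 0.22, limma adjusted p = 4.57e-05). Ccl5 (RANTES), which T and NK cells also make, was at 79.3, 220.1 and 125 FPKM in the 7w libraries and 108, 146 and 119 FPKM in 10w, against 41.9, 43.3 and 50.6 FPKM in ND. The groups did not overlap, but 7w 1 and 7w 2 differed by more than any pair in ND (log2 fold change 1.47, SE 0.31, limma adjusted p = 0.00814). Markers of T and NK cells summed to 8.95 to 44.1 FPKM in CDA-HFD and 31.0 to 36.7 FPKM in ND. Of 7 tested Klrb1c rose (1.10) and Cd4 fell by 2.04, and the part of these cells in the Ccl5 values was not tested.

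Ccl6, the 5th ligand of this group and abundant in every library, was at 263, 259.7 and 249 FPKM in the 7w libraries and 222, 229 and 233 FPKM in 10w, against 254, 264 and 248 FPKM in ND. Its ranges overlapped, with the 10w libraries below the rest, and the difference was small (log2 fold change −0.08, SE 0.03, limma adjusted p = 0.0401). That call was lost in 11 of 18 alternatives, among them leaving out ND 1, ND 2, 7w 2, 7w 3, 10w 1 or 10w 2 singly (limma adjusted p of 0.0541 to 0.206), trimmed-mean scaling (0.228) and correction for the upper limit (0.129).

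**Figure D2:**
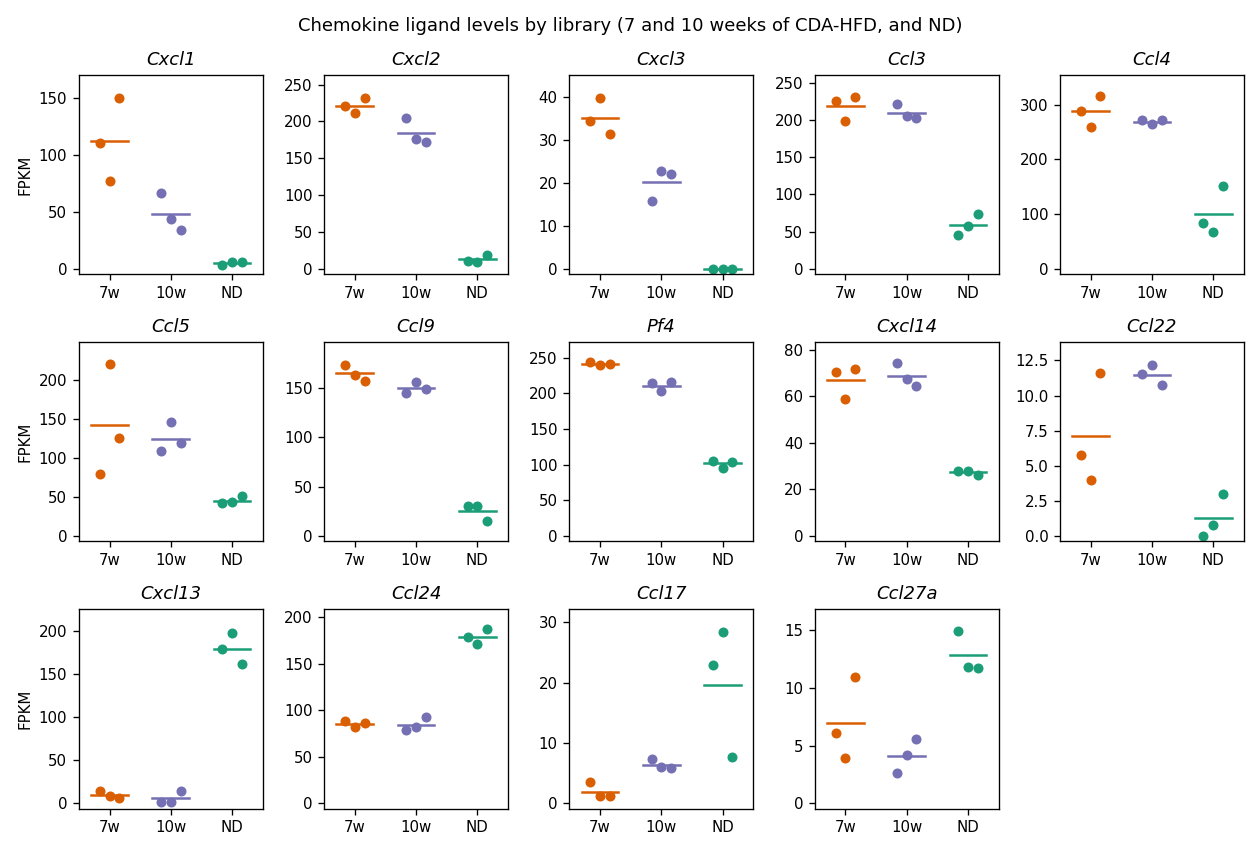
FPKM (linear y axis from 0, each panel with its own scale) of 14 chemokine ligands called in CDA-HFD against ND, by group on the x axis (7w, 10w, ND). Points are libraries and lines are means of 3; for each gene the CDA-HFD points lie all above or all below the ND points.

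Pf4 rose, and of the CXCR3 ligands Cxcl9 rose while Cxcl10 and Cxcl11 were not called. Pf4 (platelet factor 4) is best known from platelet granules and is also transcribed by tissue macrophages. It was at 244, 239.5 and 241 FPKM in the 7w libraries and 215, 203 and 215 FPKM in 10w, against 105, 95.8 and 104 FPKM in ND. The spread within each group was narrow, and both diets were fully apart (log2 fold change 1.14, SE 0.04, limma adjusted p = 2.19e-10). With correction for the upper limit the log2 fold change was 1.61. The 7 platelet markers other than the members and Clec1b, which Kupffer cells also carry, were at or below 1.40 FPKM in every library, with Gp6 listed at 0. Clec1b itself fell by 1.08 on the log2 scale, and the summed platelet markers, nearly all of it Clec1b, were at 95.2 to 137 FPKM in CDA-HFD and 238 to 249 FPKM in ND.

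Cxcl9 and Cxcl10 are induced by interferon and attract CXCR3-bearing T cells. Cxcl10 was at 60.4, 97.4 and 122 FPKM in the 7w libraries and 65.2, 74.4 and 91.9 FPKM in 10w, against 49.98, 42.3 and 68.2 FPKM in ND. The ranges overlapped between 7w 1, 10w 1 and ND 3, and the difference was not called (log2 fold change 0.65, SE 0.25, limma adjusted p = 0.0719). It was called without 7w 1 (0.79, limma adjusted p = 0.0067) and with no filter on low values (limma adjusted p = 0.0487). Exons of Cxcl10 overlap Art3 on the other strand, and the library kit does not mark strand. Cxcl9, at 27.8 ± 16.4 FPKM in 7w, 17.0 ± 4.36 FPKM in 10w and 9.95 ± 1.15 FPKM in ND (SD, n = 3), was called by a small margin (log2 fold change 0.96, SE 0.33, limma adjusted p = 0.034) and was no longer called without ND 1 (limma adjusted p = 0.107), ND 2 (0.116), ND 3 (0.0696), 7w 3 (0.0617), 10w 2 (0.0634) or 10w 3 (0.0539), with no filter on low values (0.0557) or without limma's trend and robust options (0.0671). Cxcl11, which the annotation lists as a polymorphic pseudogene in the reference strain, stayed at or below 2.21 FPKM and was not called (log2 fold change 0.71, SE 0.37, limma adjusted p = 0.134).

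Cxcl16, a membrane-bound ligand of CXCR6, was at 139, 148 and 147 FPKM in the 7w libraries and 136, 148 and 141 FPKM in 10w, against 126, 138 and 127 FPKM in ND. The levels were alike, ND 2 lying within the CDA-HFD range, and the called difference was small (log2 fold change 0.14, SE 0.04, limma adjusted p = 0.0165). It was lost without ND 1 (limma adjusted p = 0.0836) or ND 3 (0.0705), with quantile normalization (0.0598) and without trend and robust (0.111). Its receptor Cxcr6 averaged 1.74 ± 0.454 FPKM in 7w, 3.32 ± 2.61 FPKM in 10w and 3.09 ± 2.05 FPKM in ND and was not called (log2 fold change −0.22, SE 0.38, limma adjusted p = 0.669).

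Of 4 tested genes of the CCR2 ligand cluster, neighbours on chromosome 11, Ccl7 alone was called higher, and by a small margin. Ccl2 (monocyte chemoattractant protein 1) was at 93.8, 85.7 and 124 FPKM in the 7w libraries and 109, 81.3 and 112 FPKM in 10w, against 33.5, 44.2 and 107 FPKM in ND. ND 1 and ND 2 were below all CDA-HFD libraries, while ND 3 was inside their range, and the difference was not called (log2 fold change 0.87, SE 0.38, limma adjusted p = 0.106). Without ND 3 the log2 fold change was 1.35 (limma adjusted p = 0.000582). Ccl7 (monocyte chemoattractant protein 3) was at 81.5, 79.7 and 92.9 FPKM in the 7w libraries and 94.8, 61.8 and 85.5 FPKM in 10w, against 35.0, 27.8 and 76.0 FPKM in ND. The same ND 3 overlapped the CDA-HFD range, and the adjusted p lay near the threshold (log2 fold change 0.95, SE 0.32, limma adjusted p = 0.0468). The call was lost in 8 of 18 alternatives, with quantile normalization (limma adjusted p = 0.0525) and on leaving out ND 1, ND 2, any 7w library, 10w 1 or 10w 3 singly (0.0771 to 0.159).

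Ccl12, a mouse CCR2 ligand, averaged 31.2 ± 4.71 FPKM in 7w, 37.2 ± 11.3 FPKM in 10w and 26.8 ± 13.9 FPKM in ND and was not called (log2 fold change 0.41, SE 0.29, limma adjusted p = 0.279), although without ND 3 it was (0.80, limma adjusted p = 0.0107). Cxcl11 was likewise called only without ND 3 among the left-out libraries (1.14, limma adjusted p = 0.0324). Ccl8, also of this cluster, averaged 12.7 ± 10.5 FPKM in 7w, 11.9 ± 7.59 FPKM in 10w and 21.5 ± 7.66 FPKM in ND and was not called (log2 fold change −0.91, SE 0.49, limma adjusted p = 0.166). It was called lower without 7w 2 (−1.20, limma adjusted p = 0.016). ND 3 held the highest ND value for 16 of the 37 tested members with any value in ND (43.2%, against 35.2% over all genes tested) and for 12 of the 16 immediate early and dissociation response genes. The part of that response in the ND 3 values of these ligands was not tested.

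**Figure D3:**
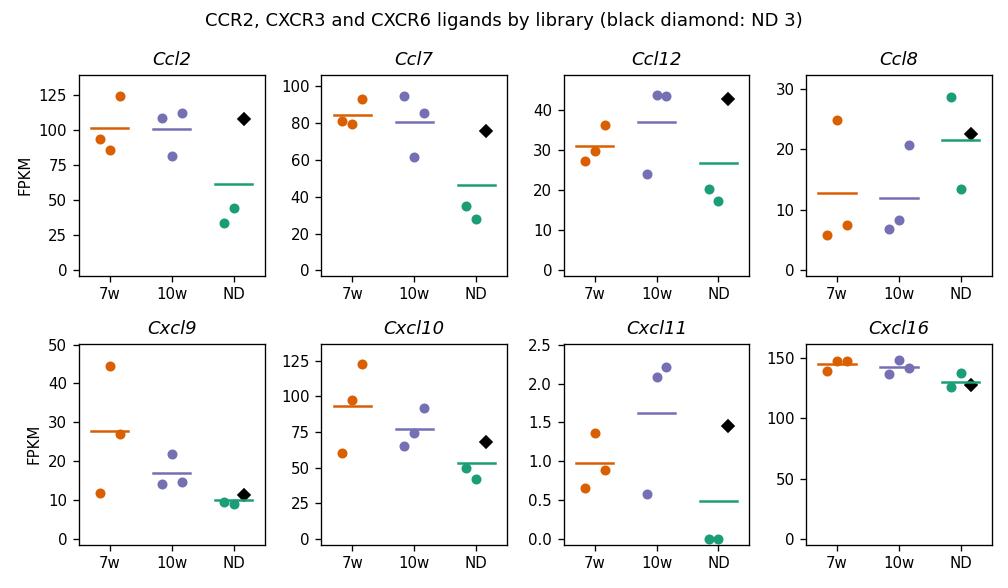
FPKM (linear y axis from 0, each panel with its own scale) of the CCR2 ligand cluster (Ccl2, Ccl7, Ccl12, Ccl8) and of ligands of CXCR3 (Cxcl9, Cxcl10, Cxcl11) and CXCR6 (Cxcl16) in 7w, 10w and ND. Points are libraries, lines are means of 3, and the black diamond marks ND 3. It lies above the other ND libraries for Ccl2 (107 FPKM), Ccl7, Ccl12, Cxcl9, Cxcl10 and Cxcl11, but not for Ccl8 or Cxcl16.

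Of the CXC ligands that are made constitutively in many tissues, Cxcl13 fell and Cxcl14 rose. Cxcl13, which attracts B cells through CXCR5, was at 14.2, 7.81 and 6.24 FPKM in the 7w libraries and 1.34, 1.59 and 14.3 FPKM in 10w, against 179.6, 199 and 162 FPKM in ND. All ND libraries were far above all CDA-HFD libraries, and within CDA-HFD 10w 3 stood above 10w 1 and 10w 2 (log2 fold change −4.75, SE 0.62, limma adjusted p = 0.000707). With a pseudocount of 5 the log2 fold change was −4.01. All 10 resident Kupffer cell markers fell in the same libraries, and their part in the Cxcl13 values was not tested. Its receptor Cxcr5 averaged 0.568 ± 0.493 FPKM in 7w, 0.469 ± 0.813 FPKM in 10w and 1.44 ± 0.468 FPKM in ND and was not called (log2 fold change −0.76, SE 0.37, limma adjusted p = 0.108). Of 4 tested B cell markers 3 fell, Cd79a by 2.52 and Ms4a1 by 2.09 on the log2 scale, and none rose. The sums of 71.6 to 100 FPKM in CDA-HFD and 93.7 to 121 FPKM in ND were mostly Cd79b, which was not called (log2 fold change −0.07).

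Cxcl14, an orphan-like CXC chemokine for which no signalling receptor is firmly established, was at 70.4, 58.8 and 71.7 FPKM in the 7w libraries and 74.6, 67.3 and 64.5 FPKM in 10w, against 27.9, 27.9 and 26.4 FPKM in ND. The groups were narrow and fully apart (log2 fold change 1.27, SE 0.08, limma adjusted p = 1.31e-07). Cxcl12, the ligand of CXCR4 and made mostly by stromal cells, averaged 2.89 ± 1.73 FPKM in 7w, 3.15 ± 1.95 FPKM in 10w and 3.06 ± 0.594 FPKM in ND and was not called (log2 fold change −0.14, SE 0.39, limma adjusted p = 0.804).

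The 2 ligands of CCR4 moved in opposite directions. Ccl22 (macrophage-derived chemokine) was at 5.77, 4.01 and 11.6 FPKM in the 7w libraries and 11.5, 12.1 and 10.7 FPKM in 10w, against 0, 0.784 and 2.95 FPKM in ND. It was listed at 0 in ND 1, and every CDA-HFD library was above every ND library (log2 fold change 2.34, SE 0.39, limma adjusted p = 0.000397). Its log2 fold change ran from 1.18 with a pseudocount of 5 to 3.75 with one of 0.1. Ccl17 (thymus and activation-regulated chemokine), the neighbour of Ccl22 on chromosome 8, was at 3.51, 1.12 and 1.13 FPKM in the 7w libraries and 7.24, 5.998 and 5.76 FPKM in 10w, against 22.9, 28.3 and 7.63 FPKM in ND. All CDA-HFD libraries were below ND, but ND 3 was close to 10w 1 (log2 fold change −2.03, SE 0.37, limma adjusted p = 0.000734). With a pseudocount of 5 its log2 fold change was −1.37.

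Ccr4 was listed at 0 in every library. Of 6 tested dendritic cell markers, Ccr7 among them, 2 rose and 1 fell. Flt3 rose (0.87) beside Ccr7, and Clec9a fell by 1.34. Against ND singly, 1 of these markers rose and 1 fell at 7w, and 3 rose and 1 fell at 10w. Flt3 averaged 1.24 FPKM in 7w, 4.02 FPKM in 10w and 0.862 FPKM in ND. The markers without members summed to 5.39 to 35.5 FPKM in CDA-HFD, the highest in 10w 3, and 12.6 to 15.8 FPKM in ND. Their part in the Ccl22 and Ccl17 values was not tested.

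Ccl24 (eotaxin-2), which attracts eosinophils through CCR3, was at 88.3, 81.6 and 86.3 FPKM in the 7w libraries and 78.5, 81.6 and 92.4 FPKM in 10w, against 179, 171 and 187 FPKM in ND. It was about as high in ND as Cxcl13, and no library overlapped (log2 fold change −1.07, SE 0.06, limma adjusted p = 1.97e-08). The other eotaxins Ccl11 and Ccl26 were listed at 0 throughout. Ccr3 averaged 5.45 ± 1.44 FPKM in 7w, 6.13 ± 5.53 FPKM in 10w and 7.44 ± 2.39 FPKM in ND and was not called (log2 fold change −0.43, SE 0.39, limma adjusted p = 0.395). It was called lower without 10w 3 (−0.73, limma adjusted p = 0.0464).

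Of 4 tested ligands of other receptors, Ccl27a fell. Ccl27a, a skin-homing chemokine ligand of CCR10, was at 6.09, 3.95 and 10.9 FPKM in the 7w libraries and 2.598, 4.18 and 5.53 FPKM in 10w, against 14.9, 11.8 and 11.7 FPKM in ND. All ND libraries were above all CDA-HFD libraries, 7w 3 coming closest (log2 fold change −1.18, SE 0.28, limma adjusted p = 0.00442). This value is uncertain, because its exons overlap Il11ra1 on the other strand and its near-identical copy Ccl27b was listed at 0 in every library. Ccl25, a CCR9 ligand whose exons overlap Elavl1 on the other strand, was not called (log2 fold change −0.50, SE 0.30, limma adjusted p = 0.196). Nor were Xcl1, the XCR1 ligand of T and NK cells (log2 fold change 0.30, SE 0.61, limma adjusted p = 0.722), and Cx3cl1, the membrane-bound ligand of CX3CR1 (log2 fold change −0.25, SE 0.36, limma adjusted p = 0.613), both at or below 5.41 FPKM.

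Of 11 tested receptors 6 rose, among them Ccr2 and Cx3cr1, which monocytes carry. Ccr2, through which monocytes leave the bone marrow and enter tissue, was at 144, 141 and 139 FPKM in the 7w libraries and 163, 149 and 136 FPKM in 10w, against 12.8, 9.84 and 15.1 FPKM in ND. Both CDA-HFD groups were far above ND and close to each other (log2 fold change 3.44, SE 0.10, limma adjusted p = 1.49e-10). Cx3cr1, the fractalkine receptor of patrolling monocytes and many tissue macrophages, was at 115, 110.0 and 117 FPKM in the 7w libraries and 137, 129 and 111 FPKM in 10w, against 8.66, 8.17 and 16.8 FPKM in ND. Its groups were as fully apart, ND 3 being the highest in ND (log2 fold change 3.37, SE 0.19, limma adjusted p = 6.79e-07). Gm33858 overlaps its exons on the other strand. In the same libraries 7 of 9 tested monocyte markers, Ccr2 among them, rose, and their part in these values was not tested.

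Ccr1, the receptor of Ccl3, Ccl5, Ccl6 and Ccl9, was at 84.4, 84.0 and 76.1 FPKM in the 7w libraries and 71.3, 73.1 and 60.1 FPKM in 10w, against 3.17, 3.56 and 7.16 FPKM in ND. ND 3 was the highest in ND and still far below CDA-HFD (log2 fold change 3.81, SE 0.18, limma adjusted p = 9.11e-09). With a pseudocount of 5 its log2 fold change was 3.07. Cxcr4, the receptor of Cxcl12, was at 59.6, 53.1 and 63.3 FPKM in the 7w libraries and 57.0, 50.2 and 55.7 FPKM in 10w, against 3.48, 2.35 and 1.36 FPKM in ND. No library overlapped, and the spread within CDA-HFD was small (log2 fold change 4.13, SE 0.17, limma adjusted p = 3.32e-09). With a pseudocount of 5 the log2 fold change was 3.06. Ccr7, with which dendritic cells and T cells home to lymph nodes, was at 15.8, 21.2 and 14.5 FPKM in the 7w libraries and 18.4, 10.8 and 17.5 FPKM in 10w, against 6.61, 6.17 and 4.67 FPKM in ND. The diets were apart, with 10w 2 nearest to ND (log2 fold change 1.33, SE 0.20, limma adjusted p = 0.000179).

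Ackr1, the Duffy antigen and an atypical receptor known from venular endothelium and red cells, was at 4.38, 2.19 and 3.87 FPKM in the 7w libraries and 1.52, 1.78 and 1.02 FPKM in 10w, and it was listed at 0 in all 3 ND libraries (neither a fold nor a p is given). Every CDA-HFD library was above 0, and all 10w libraries were below all 7w libraries. These values stand for an estimated 5.96 to 22.6 reads, and exons of Cadm3 overlap the gene on the same strand. Ackr2, Ackr3 and Ackr4 were too low to be tested, and the highest value was 2.48 FPKM for Ackr2 in 10w 3.

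Ccr1l1 and Cxcr3 fell. Ccr1l1, a receptor-like gene beside Ccr1 and similar to it in sequence, was at 0.145, 0.554 and 1.54 FPKM in the 7w libraries and 1.15, 2.30 and 0 FPKM in 10w, against 6.49, 4.30 and 5.81 FPKM in ND. ND was above CDA-HFD in every library, though at few reads (log2 fold change −1.86, SE 0.38, limma adjusted p = 0.00164). Its log2 fold change ran from −3.08 with a pseudocount of 0.1 to −0.83 with one of 5. Cxcr3, the receptor of Cxcl9 and Cxcl10, averaged 15.1 ± 3.78 FPKM in 7w, 21.7 ± 3.70 FPKM in 10w and 26.6 ± 3.88 FPKM in ND, with overlapping ranges (log2 fold change −0.54, SE 0.17, limma adjusted p = 0.022). Its call was lost without ND 1 (limma adjusted p = 0.0933) or ND 3 (0.0819).

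**Figure D4:**
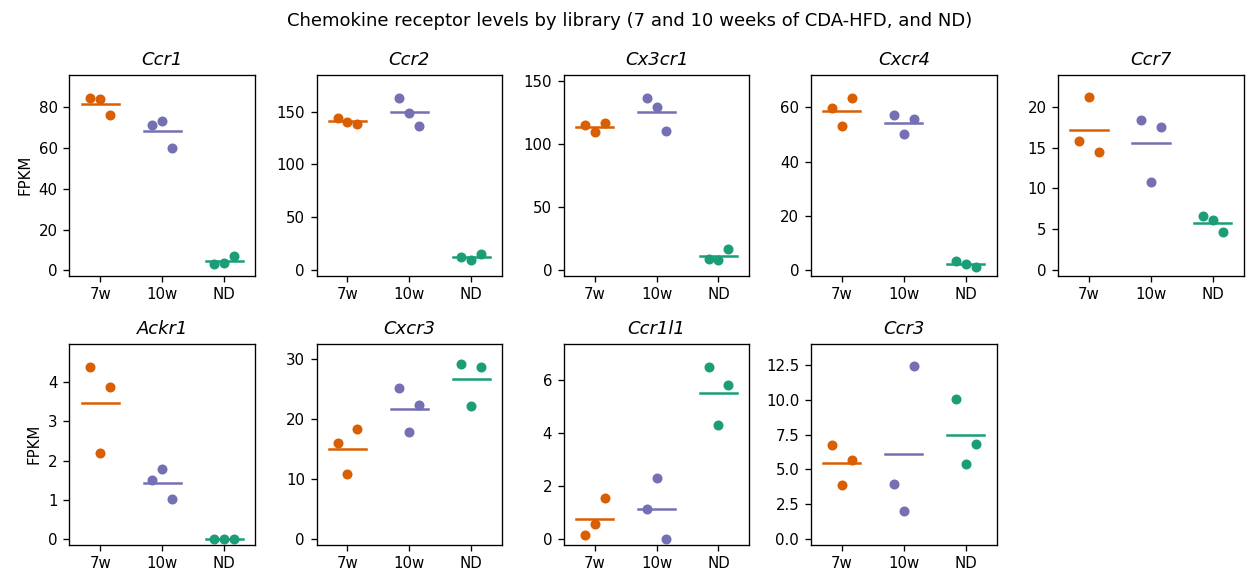
FPKM (linear y axis from 0, each panel with its own scale) of 9 chemokine receptors by group on the x axis (7w, 10w, ND). Points are libraries and lines are means of 3; Ccr1, Ccr2, Cx3cr1, Cxcr4, Ccr7 and Ackr1 are higher and Ccr1l1 lower in every CDA-HFD library, while Cxcr3 and Ccr3 overlap.

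Both feeding times were also set against ND singly. At 7w 19 members rose and 6 fell, beside 21.3% and 22.4% of all genes. At 10w 16 rose and 6 fell, beside 19.3% and 20.6%. Of the members 21 were called in the same direction at both times (16 higher and 5 lower), 4 at 7w alone (Cxcl9, Cxcl16, Cxcr3 and Ppbp), 1 at 10w alone (Ccl6) and 0 in opposite directions. The 2 comparisons share the ND libraries, which favours such agreement, and its share over all genes was not counted. Several of these calls lay near the threshold. At 7w Ccl27a was lost in 10 alternatives, among them without ND 1, ND 2, ND 3, 7w 1, 7w 2 or 10w 2 (limma adjusted p of 0.0548 to 0.181), and Ppbp in 8, among them without ND 1, ND 2, ND 3, 7w 1 or 7w 2 (0.0655 to 0.173). Cxcl9 at 7w was lost without ND 1, ND 2, 7w 2 or 7w 3 (0.0656 to 0.0779) and without trend and robust (0.0521), and Cxcl16 without ND 1, ND 3, 7w 2 or 7w 3 (0.0664 to 0.086), with quantile normalization (0.166) and without trend and robust (0.133). At 10w Ccl17 was lost in 6 alternatives, among them without ND 1, ND 2, 10w 2 or 10w 3 (0.0725 to 0.122). Ccl6 at 10w was lost without trend and robust (0.0866). Ccl5 was lost without ND 1 at 7w (0.051) and without ND 1, ND 2 or 10w 2 at 10w (0.0604 to 0.0641). At 10w Cxcl9 was gained without 7w 1 (0.0317) and with only the compared groups in the fit (0.0275), and Cxcl16 in 5 alternatives (0.0238 to 0.0443). Ccl7 was called without ND 3 at 7w (0.000123) and at 10w (0.000206), with a replicate block at both (0.0281 and 0.0419), and with no filter at 7w (0.0485).

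Between 10w and 7w no member was called with limma, beside 0.102% of all genes higher and 0.0255% lower. At an unadjusted p below 0.05 there were 7 of 39 members, 5 lower and 2 higher at 10w, beside 15.5% of all genes. Those lower at 10w were Ackr1, Ccl6, Cxcl1, Cxcl3 and Pf4, and for each of them all 10w libraries lay below all 7w libraries. Choice by p in the same libraries favours such separation, so it is no further support. Ccl9, Ccr1 and Cxcl2 were also lower at 10w without overlap, at an unadjusted p above 0.05. How many of all genes tested lay apart in this way between 10w and 7w was not counted. These separations are therefore listed as description and not as a trait of the members. Among the 5 chosen by p, the largest difference was that of Cxcl1 (log2 fold change −1.21, SE 0.32, limma adjusted p = 0.129). The smallest were those of Pf4 (log2 fold change −0.19, SE 0.04, limma adjusted p = 0.0923) and Ccl6 (log2 fold change −0.17, SE 0.03, limma adjusted p = 0.0797). Ccl17 (log2 fold change 1.42, SE 0.43, limma adjusted p = 0.152) and Cxcr3 (log2 fold change 0.51, SE 0.20, limma adjusted p = 0.245) were higher at 10w, without overlap for Ccl17 and with overlap for Cxcr3. Leaving out 10w 3 made 1 call, Cxcl13 lower at 10w (−2.01, limma adjusted p = 0.0303, against −1.13 with all libraries).

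Chemokine receptors signal through inhibitory G proteins to phosphoinositide 3-kinase gamma, phospholipase C beta and Rac, and are switched off by receptor kinases, arrestins and RGS proteins. From a list of these genes 49 were tested. In CDA-HFD against ND 12 rose (24.5%, beside 22.8% of all genes) and 16 fell (32.7%, beside 24.3%). At least 2-fold, 2 rose and 1 fell (4.08% and 2.04%, beside 7.23% and 9.24%), and the median log2 fold change was −0.06, so the share that rose was near that of all genes. Rgs18, a regulator that speeds G protein inactivation, averaged 5.61 FPKM in 7w and 5.56 FPKM in 10w, against 0.331 FPKM in ND, where ND 1 and ND 2 were listed at 0, so that no fold is given. Pik3r5, the regulatory subunit of phosphoinositide 3-kinase gamma, was at 50.6 and 56.2 FPKM in 7w and 10w and at 25.6 FPKM in ND (log2 fold change 1.05). Grk6, a kinase that desensitises chemokine receptors, fell by 1.81 to 8.61 FPKM in 7w and 10.0 FPKM in 10w, against 33.8 FPKM in ND, and Plcb3, a phospholipase C beta, fell by 0.70.

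The 24 members not tested were 12 listed at 0 in all 9 libraries and 12 with low values. Listed at 0 were 10 ligands (Ccl1, Ccl11, Ccl19, Ccl20, Ccl21a, Ccl21b, Ccl21c, Ccl26, Ccl27b and Cxcl15) and 2 receptors (Ccr4 and Cxcr1). Low were Ackr2, Ackr3, Ackr4, Ccl28, Ccr6, Ccr8, Ccr9, Ccr10, Cxcl5, Cxcl17, Cxcr2 and Xcr1. The 3 Ccl21 copies are nearly identical, so reads from them can be lost in counting. Among tested members, exons also overlap a gene on the other strand for Cxcl16 (Zmynd15), Cxcl11 (Gm2673), Cxcr5 (Bcl9l) and Xcl1 (Gm20743), and without strand the reads of such partners cannot be told apart.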

How the data were processed

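Bulk RNA-seq covered 9 libraries of sorted liver macrophages, 3 per group, grouped by the sample labels. The authors amplified cDNA with a SMART-Seq HT kit, made Nextera XT libraries and sequenced single-end reads of 75 bases. Trimmomatic (0.36.0), HISAT2 (2.2.1), featureCounts (2.0.1) and GRCm38 (mm10) are named in the submitters' processing notes. The methods name Picard for duplicate removal, and either Cufflinks or featureCounts for counting, without saying which gave these values. The table deposited by the authors was read as FPKM per gene symbol, and its columns headed Naive were taken as the ND libraries of the same number. The methods speak of TPM, but the columns summed to 444816 to 458788, where TPM columns would share 1 total. Of 24776 entries 1 was incomplete and left out, and entries sharing a symbol were summed. FPKM fold changes understate low genes because of the pseudocount, and duplicate removal caps abundant ones at an estimated 324 to 370 FPKM.

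The 11783 genes that reached 1 FPKM in 3 or more libraries were tested with limma (3.58.1, R 4.3.3; trend and robust) on log2(FPKM + 1) in 1 model of 3 group means, two-sided, with Benjamini-Hochberg adjustment over all of them. Errors after ± are SDs and SE is limma's. The script was tested on simulated data. Depth was estimated from the steps of low values, searched between 2000000 and 15000000 reads, of which 51.3% to 58.5% lay within 0.1 read of whole numbers, so it is rough. Exact zeros are given as listed at 0.

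Members and gene lists (signalling genes and markers of Kupffer cells, monocytes, neutrophils, platelets, T and NK cells, B cells, dendritic cells, endothelial cells, stellate cells, hepatocytes, and the immediate early and dissociation response) were chosen with earlier results of these data known. Of the items that match the naming rule, 1 is not reported here and enters no count of members, although it stayed among the genes tested. Given per library were members called at 2-fold or more in CDA-HFD against ND, called between 10w and 7w, or averaging 50 FPKM in a group; other tested members were given briefly, and from the other lists mainly the largest calls in each direction. Alternatives were other pseudocounts, filters and scalings (quantile, and a trimmed mean of log ratios), limma without trend and robust, only the compared groups, a replicate block, a correction for the cap and leaving out each library.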

Additional observations from a re-analysis of the deposited data

How the results depend on the processing

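All 21 members called at 2-fold or more in CDA-HFD against ND stayed called under each of the 18 alternatives, as did 21 of all 26 calls. Their size did not always stay at 2-fold. With a pseudocount of 5 the log2 fold change was 0.97 for Ccr7, −0.79 for Ccl27a and −0.83 for Ccr1l1. The 21 include Cxcl3 and Ackr1, whose calls rest on taking their ND zeros as measured values. The 5 lost under some alternative were Ccl6, Ccl7, Cxcl9, Cxcl16 and Cxcr3, and 7 of the 13 members not called were called under some alternative (Ccl2, Ccl8, Ccl12, Ccr3, Cxcl10, Cxcl11 and Ppbp). Leaving out 1 library moved the count of members called higher between 16 and 20 and lower between 5 and 8. For 10w against 7w it gave 0 to 1 called lower, the 1 being Cxcl13 without 10w 3. The other alternatives gave 17 to 21 higher and 6 to 7 lower in CDA-HFD against ND, and for the signalling genes 10 to 13 higher and 15 to 19 lower. Under every scaling the median of all genes shifted by less than 0.1 on the log2 scale.

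The sign changed for 7 values, none of them called. The log2 fold change of Ccl6 at 7w against ND was −0.041 with quantile normalization, and with 1 library left out it ran from −0.0121 (without ND 3) to 0.0327 (without ND 2), being −0.008 without 7w 1. In CDA-HFD against ND, Cxcl12 ran from −0.29 without 10w 1 to 0.09 without 7w 1 or 10w 2. Cxcr6 ran from −0.51 without ND 1 to 0.16 without ND 3, and Xcl1 from −0.34 without ND 1 to 1.00 without ND 2. The cause was not tested.

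Libraries with the same replicate number did not deviate together (correlations of −0.062 to 0.092), so the numbers were not treated as pairs. A replicate block gained Cxcl10 (limma adjusted p = 0.00211) and Ppbp (0.0377) and lost Ccl6 (0.055) in CDA-HFD against ND, with 21 members higher and 6 lower. Depth limits members at a few FPKM, such as Ackr1, Cxcr5, Cxcl11 and Xcl1, to at most 26.1 estimated reads per library.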
